A study of Mus musculus with 2 samples.

Results

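Z22 peaks that were present both in untreated and in Alexidine-treated mouse embryonic fibroblasts (MEFs) are described here. A peak of the Alexidine list was taken as shared when it overlapped at least 1 peak of the untreated list by 1 bp or more, and it was paired with the untreated peak of largest overlap. Of the 687 Alexidine peaks, 254 (37.0%, exact 95% interval 33.4% to 40.7%) were shared, and 433 were not. Because the overlap itself chose the peaks, this share is a description and not a finding. The 254 peaks were paired with 243 different untreated peaks, since 22 of them had a partner in common with another Alexidine peak. In the other direction, 244 of the 432 untreated peaks (56.5%) overlapped an Alexidine peak.

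Z-DNA is a left-handed form of the double helix that forms most readily where purines and pyrimidines alternate, and Z22 is a monoclonal antibody that recognizes it. Alexidine is a bisbiguanide antiseptic that the study examined as an inducer of Z-DNA. Mouse chromosomes other than Y are telocentric, so that the assembled sequence of each starts next to its centromere, and the flanking heterochromatin consists of long tandem arrays of satellite repeats. Such arrays are present in far more copies in the genome than in its assembly, and reads from all copies fall on the few assembled ones.

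The MEFs were cultured with no treatment or with 1 µM Alexidine for 24 h, fixed with formaldehyde, and their enzymatically sheared chromatin was immunoprecipitated with Z22 and sequenced. Each condition was represented by 1 library, so no test of the treatment was possible, and whether the libraries came from separate cultures is not stated in the labels. For each library the authors deposited a list of peaks called with MACS2, in which a peak has its boundaries, a summit, a fold enrichment over the local background of the same library, and a −log10 p and −log10 q. Read depth is not part of such a list. From the fold and the −log10 p, the number of fragments piled up at the summit (the pileup) and the local background in fragments were recovered for all 687 Alexidine peaks and for 431 of the 432 untreated peaks. The lowest background of a list, 1.23 fragments in Alexidine and 1.43 in untreated cells, is referred to as the genome background, and local backgrounds are given as multiples of it. Divided by the narrowest peak of each list (179 and 245 bp), these values place the Alexidine library at 1.174 times the depth of the untreated library. Positions are those of the lists, whose sequence versions are GRCm39.

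Peaks were shared most often in the assembled sequence closest to the centromeres and on scaffolds not placed in any chromosome, whereas peaks seen only after Alexidine were mostly in the interior of the chromosomes. At chromosome starts, defined as positions below 4000000 on chromosomes 1 to 19 and X, 54 of 76 Alexidine peaks were shared (71.1%, 59.5% to 80.9%), and on scaffolds 72 of 97 (74.2%, 64.3% to 82.6%). In the interior of chromosomes 1 to 19 and X the share was 111 of 452 (24.6%, 20.7% to 28.8%), and on the Y chromosome it was 17 of 62 (27.4%, 16.9% to 40.2%). The intervals of the first 2 places lay above those of the last 2, but they treat clustered peaks as independent. Wide or closely spaced peaks also meet a limit of 1 bp more easily. The untreated partners had a median width of 669 bp at chromosome starts and 645 bp on scaffolds. It was 406 bp in the interior and 369 bp on the Y chromosome. The part of width and spacing in these shares was not tested. Untreated peaks showed the same contrast, with 91.1% shared at chromosome starts, 90.5% on scaffolds, 17 of 34 on the Y chromosome and 40.7% in the interior. Chromosome starts and scaffolds thus made up 21.3% and 28.3% of the shared peaks, but 5.08% and 5.77% of the Alexidine peaks that were not shared. On chromosomes 1 to 19 and X alone, 32.7% of the shared peaks were at a start.

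Widths of paired peaks differed in both directions, with a median ratio near 1. The median width was 461 bp with Alexidine (range 180 to 5314 bp) and 500 bp without (246 to 5184 bp), and the median of the paired ratios, Alexidine over untreated, was 0.99 (95% interval of the median 0.951 to 1), with quartiles of 0.701 and 1.07 and a range of 0.0979 to 3.68. The Alexidine peak was the narrower one in 135 pairs and the wider one in 118, and in 94 pairs (37.0%) the widths differed by at most 10%. For comparison, Alexidine peaks that were not shared had a median width of 261 bp, and untreated peaks that were not shared 336 bp. In 145 pairs (57.1%) the overlap covered the whole of the smaller peak. Width was least alike on the Y chromosome, where the median was 270 bp with Alexidine and 369 bp without, a paired ratio of 0.713 over 17 pairs. The ratio was 0.956 on scaffolds, 1.01 at chromosome starts and 1 in the interior. The narrowest peak of the whole list was 179 bp with Alexidine and 245 bp without. The part of these lower limits in the width ratios of narrow peaks was not tested.

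The widest shared peak was on chromosome 9 at 124254274 to 124259587. It spanned 5314 bp with Alexidine and 5184 bp without, and its fold was 8.60 and 6.03. Next in width was a peak at the start of chromosome 14, at 3050290 to 3053974, with 3685 and 3666 bp and folds of 10.8 and 9.01. Both peaks had almost the same boundaries in the 2 libraries. The third, on scaffold NT_187064.1 at 90067 to 93496, measured 3430 bp with Alexidine, where the untreated peak of 4159 bp also covered a second Alexidine peak.

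The order of the shared peaks by fold enrichment was largely kept between the libraries. Over the 254 pairs the Spearman correlation of the folds was 0.91, and that of the −log10 q was 0.92, both as descriptions of peaks that share 2 libraries and are not replicates. The correlation was 0.93 at chromosome starts (54 pairs), 0.89 on scaffolds (72), 0.80 in the interior (111) and 0.64 on the Y chromosome (17). Widths were less tightly ordered, with a correlation of 0.64. Among the 10 pairs with the highest Alexidine fold, 7 were also among the 10 with the highest untreated fold, and the corresponding numbers were 20 of 25 and 45 of 50. Within its own full list, the median shared peak stood at percentile 62.3 by fold with Alexidine and at percentile 58.7 without. By place, the medians were at percentiles 16.4 and 14.0 on scaffolds, 37.8 and 20.9 at chromosome starts, 74.1 and 69.0 in the interior, and 82.5 and 83.3 on the Y chromosome. The low median on scaffolds came with NT_187064.1 (27 pairs, median Alexidine fold 3.57) and NW_023337853.1 (11 pairs, 2.71), whereas it was 9.11 on NT_166473.1 (5 pairs), 8.99 on NT_166467.1 (6) and 6.50 on NT_166474.1 (9).

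Fold enrichment was somewhat higher with Alexidine. Its median was 5.96 with Alexidine and 5.39 without, the median paired ratio was 1.20 (1.14 to 1.23), and the fold was higher with Alexidine in 183 of 254 pairs (72.0%). This held for 45 of 54 pairs at chromosome starts, 57 of 72 on scaffolds, 71 of 111 in the interior and 10 of 17 on the Y chromosome. The Alexidine library had a greater depth, but a lower genome background (1.23 against 1.43 fragments) and a shorter narrowest peak (179 against 245 bp). The part of these differences in the higher folds was not tested. The enriched fragments themselves gave another picture. Raw pileups rise with the depth and fragment length of a library, and so does the genome background. The pileup of a narrow peak need not rise in proportion to fragment length, so ratios and intervals in genome backgrounds depend on this unit. When the pileup above the local background was expressed in genome backgrounds, the median paired ratio was 1.04 (0.968 to 1.09) over the 253 pairs with both values, and 134 of them (53.0%) were higher with Alexidine. In the interior this ratio was 1.26, with 76 of 111 pairs higher with Alexidine (68.5%, 59.0% to 77.0%). At chromosome starts it was 0.845, with 23 of 53 pairs (43.4%, 29.8% to 57.7%), but without the 19 pairs of chromosome 9 it was 1.166, with 22 of 34 pairs, and on scaffolds 0.870, with 23 of 72 pairs (31.9%, 21.4% to 44.0%). On the Y chromosome, 12 of 17 pairs were higher with Alexidine (70.6%, 44.0% to 89.7%), with a median ratio of 1.05. On this scale the pileup above background was higher with Alexidine in most interior pairs and lower in most scaffold pairs. The fold was higher in most pairs of either kind. In raw fragments, the median interior pileup was 22 with and 19 without Alexidine, and on scaffolds it was 222 and 257. The part of the unit in the ratios was not tested.

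The shared peak with the highest Alexidine fold was on chromosome 14 at 125038976 to 125039651. Its fold was 35.2 with Alexidine and 25.01 without, from pileups of 298 and 205 fragments. In genome backgrounds these pileups had counting intervals of 216 to 272 and 124 to 164, which do not overlap. Whether they stay apart with a scaling by depth alone was not tested. It was followed by a peak on scaffold NT_166473.1 at 10393 to 10826, with folds of 33.5 and 26.2 and pileups of 799 and 1275. These 2 peaks held the first 2 ranks by fold among all peaks of both lists, in exchanged order. The scaffold peak had a pileup of 606 to 697 genome backgrounds with Alexidine and of 842 to 941 without, over a local background of 18.6 and 33.3, and so its fold was higher with a lower pileup. The ratio of the pileup above background was 1.71 on chromosome 14 and 0.738 on the scaffold.

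Other peaks near the top by fold also differed between chromosomes and scaffolds. On chromosome 16, the peak at 97908648 to 97908967 had folds of 32.3 and 20.9 and a ratio of 1.53 for the pileup above background, and on chromosome 12 that at 119992408 to 119992756 had folds of 30.5 and 22.7 and a ratio of 1.52. On scaffold NT_166476.1, the peak at 204 to 2086 had folds of 32.7 and 24.5 and a ratio of 1.03, and on scaffold NT_166480.1 that at 11942 to 12264 had folds of 28.3 and 22.9 and a ratio of 0.866. Among the 6 shared peaks with the highest Alexidine fold, the 3 on chromosomes thus rose above the background more with Alexidine, in genome backgrounds. The 3 on scaffolds did so about equally or less. A different case was chromosome 17 at 4676444 to 4676849. There the pileup was 127 fragments with Alexidine (86.2 to 123 genome backgrounds) and 464 without (295 to 355), and the local background 3.18 and 13.0 genome backgrounds, so that the folds of 26.1 and 23.7 were nearly alike. This pair had the lowest background ratio of the 253 pairs with both values, 0.244.

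The place of a shared peak within its list differed by more than 20 percentile points in 57 of 254 pairs (22.4%, 17.5% to 28.1%). The difference in percentile, Alexidine minus untreated, had quartiles of -3.24 and 8.49. A percentile depends on the length and the other members of its list, which were not the same, so that it can differ without a change of the peak itself. The largest rise was on chromosome 18 at 24810226 to 24810576, from percentile 38.1 to 89.2, with a fold of 4.76 without and 9.78 with Alexidine. It rested on small pileups of 12 fragments without (counting interval 4.33 to 14.6 genome backgrounds) and 26 with Alexidine (13.8 to 31.0), whose intervals overlap. On the X chromosome at 168777502 to 168778049, the fold was 4.76 without and 8.59 with Alexidine, from 46 fragments (23.5 to 42.8 genome backgrounds) and 97 fragments (64.1 to 96.4). The intervals of this pair do not overlap. On scaffold NT_187064.1 at 77467 to 79487, the fold was 4.43 without and 6.49 with Alexidine, while the pileup was 6252 fragments (4258 to 4475 genome backgrounds) and 3624 fragments (2856 to 3049). Its fold was thus higher with a lower pileup, as at the scaffold peak of second rank.

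The largest fall was at the start of chromosome 3, at 3042153 to 3042411, from percentile 77.3 to 11.8. Its fold was 6.75 without and 3.92 with Alexidine, from pileups of 32 fragments (15.3 to 31.5 genome backgrounds) and 17 fragments (8.07 to 22.2), and the intervals overlap. The untreated peak of 632 bp had its summit outside the Alexidine peak, 305 bp from the Alexidine summit, so that the fall compares separate positions. On scaffold NT_166467.1 at 28534 to 29074, the fold was 6.44 without and 3.74 with Alexidine, but the untreated peak of 1760 bp extended over 2 Alexidine peaks, and its summit was under the other one. On the X chromosome at 168801641 to 168802213, the fold was 6.10 without and 4.29 with Alexidine, with pileups of 51 fragments (26.5 to 46.8 genome backgrounds) and 26 (13.8 to 31.0). This peak lies 23591 bp from the X chromosome peak that rose, with further shared peaks between them. Shared peaks close to each other thus differed in direction, although the intervals of the peak that fell overlap.

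Summits were within 50 bp of each other in most pairs. The median distance between paired summits was 19 bp (14 to 28), 23 pairs had the same summit base, 94 (37.0%) were within 10 bp and 162 (63.8%, 57.5% to 69.7%) within 50 bp. There was no preferred direction, with the Alexidine summit to the right in 114 pairs and to the left in 117. Distances were shortest at chromosome starts (median 7 bp) and on scaffolds (10 bp), and longest in the interior (48 bp), with 18 bp on the Y chromosome. The order of starts and scaffolds rests on the 20 pairs at the start of chromosome 9, whose median was 0 bp. At the starts of chromosomes 11, 17, 3, 10 and 4 the medians were 7, 14, 21, 104 and 140 bp. Narrow and wide pairs were alike, with summits within 50 bp in 64 of 96 pairs in which both peaks were under 500 bp (66.7%) and in 42 of 61 pairs in which either was 1000 bp or wider (68.9%). Among peaks with a background of at most 2 genome backgrounds in both lists, the median was 49 bp over 83 pairs.

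Where summits were farthest apart, the paired peaks differed in length. The largest distance, 1469 bp, was that on scaffold NT_166467.1 at 28534 to 29074, described above. On scaffold NT_187064.1, the summit of the peak at 81046 to 84376 was 1322 bp to the left of its untreated partner, which covered 1533 bp of the 3331 bp of the Alexidine peak. This Alexidine peak met 2 untreated peaks, and its summit was outside the one it was paired with. On the same scaffold, the Alexidine peak at 111660 to 112372 had its summit 1042 bp to the left of the summit of a 2160 bp untreated peak. In each of these 3 pairs the longer peak was more than 2 times as wide as the other.

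Shared peaks had a high local background more often than other peaks. In the Alexidine list it was above 2 genome backgrounds for 166 of 254 shared peaks (65.4%, 59.2% to 71.2%) and for 64 of 433 peaks that were not shared (14.8%, 11.6% to 18.5%). For untreated peaks the numbers were 158 of 243 (65.0%) and 19 of 188 (10.1%). Backgrounds above 100 genome backgrounds occurred in 47 shared Alexidine peaks (18.5%) and 7 that were not shared (1.62%), and in untreated cells in 42 shared peaks and 0 of 188 others (at most 1.6% by the limit of 3 counts). The shared peaks at a high background were at chromosome starts (53 of 54) and on scaffolds (69 of 72), and less often on the Y chromosome (6 of 17) and in the interior (38 of 111). Interior shared peaks, with 34.2% (25.5% to 43.8%), still exceeded the 14.8% over all Alexidine peaks that were not shared, in all places together. Shared Alexidine peaks also had larger pileups, with a median of 52 fragments against 12 for those not shared. As no input is stated, a local background may include the reads of its own peak. The part of peak strength in the high backgrounds was not tested. When only peaks with a background of at most 2 genome backgrounds in both lists were compared, 18.2% of the Alexidine peaks were shared, in place of 37.0%.

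The local background itself was closely tied between the libraries, with a Spearman correlation of 0.98 over 253 pairs. It was 0.99 at chromosome starts and on scaffolds, 0.87 in the interior and 0.81 on the Y chromosome. The median ratio of the backgrounds, Alexidine over untreated, was 0.687 on scaffolds, 0.772 at chromosome starts, 0.896 on the Y chromosome and 1.01 in the interior. The value at chromosome starts rests on the 19 pairs of chromosome 9, with ratios of 0.417 to 0.526. The background was higher with Alexidine in 19 of 53 start pairs, all of them among the 34 pairs of other chromosomes. For 86 pairs with an untreated background of at most 2 genome backgrounds, the median background ratio was 1, a value that is largely set by the unit, since neither list goes below 1 genome background. It was 1.07 for 75 pairs between 2 and 10, 0.745 for 45 pairs between 10 and 100, and 0.473 for the 47 pairs above 100, whose median background was 445 genome backgrounds with Alexidine and 947 without. The classes were cut on the untreated value, which is also the denominator of the ratio. In this last class the background was lower with Alexidine in 46 of 47 pairs and the pileup above background in 41 of 47 (median ratio 0.682), while the fold was higher with Alexidine in 41 of 47 (median ratio 1.29). Most of these places thus had less Z22 signal in the Alexidine library, relative to its genome background. MACS2 estimates the background from a window much wider than a peak, so that neighbouring pairs share much of it and are not independent. As no input is stated, this window may also hold the reads of the peaks themselves. Pileup and background are then not separate observations, and signal beside the peaks was not measured apart from them. The cause of the lower background was not tested.

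These 47 pairs came from few sequences. The start of chromosome 9 held 19 of them, with background ratios of 0.417 to 0.526, and scaffold NT_187064.1 held 22, with ratios of 0.448 to 0.539. The pair at the start of chromosome 14 had a ratio of 0.482, and 1 pair on scaffold NT_166476.1 had 0.535. These values are close to each other, although the sequences are separate in the assembly. Scaffold NW_023337853.1, in contrast, held 4 pairs above 100 genome backgrounds with ratios of 0.896 to 1.01. Over all 11 pairs of that scaffold the median background was 84.7 genome backgrounds with Alexidine and 93.0 without, and the pileup above background had a median ratio of 1.04. On that scaffold a high background was thus about equal in the libraries.

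The highest backgrounds were all at the start of chromosome 9. At 3004053 to 3004774 the local background was 922 genome backgrounds with Alexidine and 1923 without, with folds of 2.67 and 2.03. At 3003306 to 3003736 it was 907 and 1892, with folds of 3.14 and 2.36, and at 3019878 to 3021148 it was 857 and 1738, with folds of 3.92 and 3.10. In each of these pairs the summit was at the same base in both libraries, and pileups of 3022, 3498 and 4130 fragments with Alexidine went with low folds. The peak at 3000028 to 3002339, where the untreated pileup was not recovered, had 11074 fragments with Alexidine and folds of 13.0 with and 9.50 without.

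When shared peaks with gaps of at most 50000 bp were joined, 78 of the 182 shared peaks on chromosomes fell into 17 clusters, and 104 stood alone. The largest cluster was the start of chromosome 9 from 3000028 to 3038270, with 20 shared peaks that covered 50.2% of its 38243 bp. The median background there was 633 genome backgrounds with Alexidine and 1304 without, the median pileup above background had a ratio of 0.687, and the median distance of paired summits was 0 bp. Without chromosome 9, 15.1% of the shared peaks were at a chromosome start, in place of 21.3%.

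Other chromosome starts had lower median backgrounds than chromosome 9, and only some had less signal with Alexidine. Chromosome 11 had 13 shared peaks from 3050041 to 3149612, with median backgrounds of 13.1 genome backgrounds with Alexidine and 17.0 without, a median background ratio over pairs of 1.05, and a ratio of 1.06 for the pileup above background. Chromosome 17 had 6 shared peaks from 3056810 to 3081028, with median backgrounds of 5.90 and 5.41 and a ratio of 1.47 for the pileup above background. Chromosome 3 had 5 from 3000134 to 3042411, with median backgrounds of 16.2 and 24.7 and a ratio of 0.814. The single shared peak at the start of chromosome 14 had backgrounds of 283 and 587 and a ratio of 0.589. At the start of chromosome 10 the 2 shared peaks had a median ratio of 0.873, at that of chromosome 4 the 4 shared peaks had 1.50, and the single peaks on chromosomes 2, 6 and 16 had 1.72, 1.33 and 1.24. Ratios were thus below 1 at the starts of chromosomes 3, 9, 10 and 14 and above 1 at the other 6 with a shared peak. Chromosomes 1, 8, 12, 15, 18, 19 and X had 0 Alexidine peaks below 4000000, and chromosomes 5, 7 and 13 had 2 each, none of them shared.

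Away from the chromosome starts, the X chromosome held a cluster of 5 shared peaks from 169080990 to 169115382 in which the signal was higher with Alexidine in 4 pairs. The fifth, at 169114860 to 169115382, had folds of 5.64 with and 13.7 without and a ratio of 0.507 for the pileup above background, but its untreated partner also met the neighbouring Alexidine peak and had its summit there. Over the cluster, folds ranged from 5.64 to 21.8 with Alexidine and from 7.42 to 13.7 without, the median background was 6.41 and 4.51 genome backgrounds, and the pileup above background had a median ratio of 2.27. The distal end of the mouse X chromosome carries the pseudoautosomal region, which pairs with the Y chromosome in meiosis, and its bounds were not read here. A pair of shared peaks on chromosome 9 between 123701953 and 123721918 had the same median ratio of 2.27, with folds of 26.6 and 22.5 with Alexidine and 18.6 and 14.7 without. This pair was singled out after its values were seen.

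The sequence under shared peaks could be read on 15 scaffolds that have the same sequence version in the lists and in GRCm38.p6. They held 59 of the 254 shared peaks (23.2%), on 8 of the scaffolds, and 20 Alexidine peaks that were not shared, so the sequence describes the scaffolds and not the chromosomes. In the 2000 bp around each summit, the repeat length at which most bases matched was 234 bp in 23 of the 59 shared peaks, more than any other length. Windows were then grouped by the share of bases equal to the base 1 repeat length further on. With at least 60% at about 234 bp, 21 shared peaks lay in a 234-bp tandem array, and with at least 40% at 58, 59 or 117 bp, 28 lay in a more diverged repeat of about 58 bp, which divides that unit into 4. Another 3 lay in a 21-bp repeat and 7 in neither. The 234-bp and 58-bp classes held 49 of 59 shared peaks (83.1%, 71.0% to 91.6%), 5 of 20 peaks that were not shared (25%, 8.66% to 49.1%) and 59 of 286 consecutive windows of 2000 bp on the same scaffolds (20.6%). Because the length of 234 bp was taken from the shared peaks, their share is a description. A tandem unit of 234 bp is known for the mouse major satellite of pericentromeric heterochromatin, but no satellite reference was compared here.

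A short word recurred in these peaks. The 12-base sequence TCTCATTTTCCA (on the other strand TGGAAAATGAGA) was found in the 300 bp around the summit of 47 of 59 shared peaks (79.7%, 67.2% to 89.0%), more than any other 12-base word. It was present in 4 of 20 peaks that were not shared, in 332 of 2014 consecutive 300-bp windows of the same scaffolds (16.5%) and in 3 of 32851 RefSeq promoters of 300 bp (0.00913%). The word was chosen because it was frequent in the shared peaks, so its share there is a description. By class it was in 20 of 21 shared peaks of the 234-bp arrays, 25 of 28 of the 58-bp repeat, 0 of 3 of the 21-bp repeat and 2 of 7 others.

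The windows of the 3 shared peaks with the highest Alexidine fold on separate scaffolds are given below, because they show the diverged 58-bp repeat at the strongest peaks, and are followed by 1 unit of a 234-bp array, chosen after its values were seen as the peak with the highest match at 234 bp (93.9%). Sequences are on the plus strand of GRCm38.p6, and capitals mark every stretch covered by 1 of the 10 most frequent 12-base words of shared peaks, on either strand. The first window had folds of 33.5 with and 26.2 without Alexidine, the second 32.7 and 24.5, the third, which begins after an assembly gap, 28.3 and 22.9, and the array unit 4.24 and 3.49.
NT_166473.1:10508-10807: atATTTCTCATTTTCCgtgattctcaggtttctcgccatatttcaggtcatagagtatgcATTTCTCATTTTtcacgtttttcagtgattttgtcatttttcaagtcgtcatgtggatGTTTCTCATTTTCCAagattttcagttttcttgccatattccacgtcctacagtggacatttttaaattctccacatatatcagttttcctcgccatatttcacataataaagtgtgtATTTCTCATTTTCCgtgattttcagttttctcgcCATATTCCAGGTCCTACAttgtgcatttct
NT_166476.1:634-933: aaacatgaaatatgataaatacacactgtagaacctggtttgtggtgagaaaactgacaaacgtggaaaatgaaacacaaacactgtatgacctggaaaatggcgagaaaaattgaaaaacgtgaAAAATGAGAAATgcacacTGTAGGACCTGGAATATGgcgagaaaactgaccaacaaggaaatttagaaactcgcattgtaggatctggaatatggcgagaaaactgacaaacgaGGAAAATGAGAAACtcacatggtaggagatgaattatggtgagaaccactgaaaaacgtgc
NT_166480.1:11941-12145: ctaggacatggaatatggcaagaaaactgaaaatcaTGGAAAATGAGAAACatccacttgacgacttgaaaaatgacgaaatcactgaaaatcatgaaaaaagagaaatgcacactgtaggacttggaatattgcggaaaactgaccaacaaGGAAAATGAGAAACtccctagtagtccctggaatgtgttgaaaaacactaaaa
NT_187064.1:100711-100944: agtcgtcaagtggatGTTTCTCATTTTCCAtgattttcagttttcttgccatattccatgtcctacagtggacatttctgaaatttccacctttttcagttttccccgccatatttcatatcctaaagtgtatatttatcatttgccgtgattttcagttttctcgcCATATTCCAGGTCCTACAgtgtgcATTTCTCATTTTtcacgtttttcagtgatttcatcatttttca
The array unit was 94.0% identical to the unit that follows it. Each of the 4 sequences holds at least 4 of the 10 words on 1 strand or the other. The shared windows are rich in A and T, with a median GC content of 36.7% over the 59 shared windows, compared with 48.3% over the 20 windows that were not shared and 41.0% over the 2014 scaffold windows.

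Long runs of alternating purines and pyrimidines, the feature that favours the Z form, were not found in these windows. The longest alternating run in the 300 bp around the summit had a median of 8 bp (range 5 to 11), the same median as the scaffold windows. A run of 12 bp or longer was present in 0 of 59 shared peaks (at most 5.08% by the same limit), in 2 of 20 peaks that were not shared (10.0%, 1.23% to 31.7%) and in 152 of 2014 scaffold windows (7.55%, 6.43% to 8.79%). Runs of TG or CA of 12 bp or longer were in 0 of 59, 2 of 20 and 57 of 2014 (2.83%). The limit treats the windows as independent, but 49 of the 59 lie in the 234-bp and 58-bp repeats, and the longest run was 8 bp in all 21 windows of the arrays. The counts therefore describe these repeats and cannot show a shortage of alternating runs in shared peaks as such.

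The repeat class went along with the level of Z22 signal and with its ratio between the libraries. In the 234-bp arrays the median local background was 416 genome backgrounds with Alexidine and 909 without, the ratio was 0.463 (range 0.448 to 0.539 over 21 pairs), and the pileup above background had a median ratio of 0.673. In the 58-bp repeat the median background was 10.3 and 14.5, with a ratio of 0.687 (0.458 to 0.838 over 28 pairs) and a pileup ratio of 0.885. Every pair in these classes had a lower background with Alexidine. The 3 pairs of the 21-bp repeat, in contrast, had background ratios of 1.24, 1.25 and 1.28, and the 7 pairs in neither class had a median of 0.997. All 21 pairs of the arrays lie on scaffold NT_187064.1, so that they are not independent. For contrast, 3 units of the 21-bp repeat are given, with the middle unit in capitals. They were chosen after their values were seen, from the 2000 bp around the summit of the shared peak with the highest match at 21 bp (68.4%), on scaffold NT_166471.1 at 3197 to 3712, with folds of 4.37 with and 4.01 without Alexidine.
NT_166471.1:4041-4103: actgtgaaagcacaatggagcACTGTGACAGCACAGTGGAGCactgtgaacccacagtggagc
The stretch begins 329 bp beyond the end of this Alexidine peak and is not under it. Neighbouring units of the stretch were 88.1% identical, and it holds none of the 10 words.

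The scaffold sequences also occur on the chromosomes. In a search of the 300-bp windows against the GRCm38 chromosomes, counting matches of at least 80% identity over at least 240 bp, the 59 shared windows had a median of 110 matches (range 0 to 1226), and the 20 windows that were not shared had a median of 18. At least 1 match below 4000000 on a chromosome other than Y was found for 50 of the 59 shared windows and for 15 of the 20 that were not shared. Windows of the 234-bp arrays had a median of 216 matches, of which 87.6% were below 4000000. Joined over all shared windows, matches fell into 673 bins of 300 bp, of which 232 were below 4000000, and chromosome 9 had 128 of these, chromosome 17 had 35, chromosome 4 had 24, chromosome 16 had 21 and chromosome 11 had 18. The start of chromosome 9, which had the most shared Z22 peaks in the GRCm39 lists, thus also holds the most copies of the shared scaffold sequences in GRCm38. Copies and background did not go together at every start. Chromosome 14, with start backgrounds of 283 and 587 genome backgrounds, had 0 such bins. The start clusters of chromosomes 17, 4 and 11 had median background ratios of 1.13, 1.07 and 1.05, and that of chromosome 9 had 0.479. No positions were transferred between the builds.

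The 15 RefSeq genes and pseudogenes annotated on these scaffolds take up 23.7% of their bases. They were overlapped by 1 of the 59 shared peaks and by 4 of the 20 peaks that were not shared. The shared peak on scaffold NT_187064.1 at 15753 to 16102, with folds of 2.95 with and 2.41 without Alexidine, was within LOC100861749, a transcribed pseudogene at 4567 to 52729 on the plus strand.

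The smallest overlap of a shared peak, 10 bp, was on chromosome 9 at 99359206 to 99359386, with folds of 4.29 with and 5.21 without Alexidine. It was followed by 20 bp on chromosome 6 at 116457647 to 116457843 (4.49 and 4.76) and 26 bp on chromosome 2 at 118275477 to 118275755 (4.83 and 5.67). Outside the limit of 1 bp, the closest Alexidine peak that was not shared was 130 bp from an untreated peak, on the X chromosome at 68980587 to 68981054 (4.70 and 6.06). Next were gaps of 173 bp on chromosome 7 at 47954434 to 47954694 (5.39 and 4.70) and 205 bp on chromosome 4 at 156501709 to 156501978 (5.64 and 4.52). Folds on the 2 sides of the limit were in the same range.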

How the data were processed

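Z22 ChIP-seq of MEFs comprised 1 untreated and 1 Alexidine library. According to the methods, dose and time being those of a legend, the authors trimmed reads with fastp 0.23.1, aligned them with Bowtie2 2.3.4.3, removed duplicates with SAMtools 1.17 and blacklisted regions, and called peaks per library with MACS2 (version not given in the sources used here). An input library is not stated. The methods name mm10, whereas labels and sequence versions are GRCm39. The deposited fold is a ratio to the local background. The deposited −log10 p and −log10 q are those of the summit, and the authors' score is 10 times the −log10 q without decimals in 1116 of 1119 peaks.

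Pileup n and background λ were recovered as the only whole n up to 20000 with fold (n + 1)/(λ + 1) and a Poisson −log10 p within 0.002, plus 1e-06 times n for rounding. In tests on simulated data, the recovery returned 354 of 378 peaks, each with the right pileup and background, and the pairing was right for 49 of 49 pairs. Shares have exact (Clopper-Pearson) 95% intervals, medians order-statistic intervals, pileups exact Poisson intervals, and a share of 0 the limit of 3 counts. All cover counting error only, and PCR copies and neighbouring peaks are not independent.

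Sequence, RefSeq genes and promoters were those of GRCm38.p6. Windows with under 20% unknown bases were used for the scaffold shares. Matches were searched with blastn 2.17.0+ (word size 16, no masking). Python 3.11.15, NumPy 2.4.6, SciPy 1.17.1 and pandas 2.3.3 were used. Sequence and genes of chromosome peaks were not analysed here.

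Named pairs are the 5 with the highest fold in each list, the 3 widest, the 3 with the largest rise and fall of fold percentile, the 3 largest summit distances, the 3 highest Alexidine backgrounds, the 3 smallest overlaps and the 3 closest Alexidine peaks outside the rule. The shared peaks and lists were chosen with earlier results of these data known. Alternatives were other definitions of overlap, a −log10 q of at least 5, chromosomes 1 to 19 and X, pairs of 1 peak each, other measures and limits, and low-background peaks.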

Additional observations from a re-analysis of the deposited data

How the results depend on the processing

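Of 46 alternative values, 24 stayed within the 95% interval of the main value, among them all 6 for pairs of 1 peak each. The share of shared peaks (37.0%) was 29.7% with an overlap of 50% of both peaks, 27.1% with summits within 100 bp, 48.6% at a −log10 q of at least 5 and 31.2% on chromosomes 1 to 19 and X. In this order, the correlation of the folds (0.91) was 0.93, 0.94, 0.94 and 0.86. With summits within 100 bp, the fold ratio was 1.24 and the summit distance 10 bp by construction. At a −log10 q of at least 5, the distance was 13 bp and the share above 2 genome backgrounds 78.1%. On chromosomes 1 to 19 and X, that share was 55.2% and the share at chromosome starts 32.7%, with scaffolds and the Y chromosome left out. A limit of 4 genome backgrounds gave 51.6%, leaving out chromosome 9 gave 15.1% at chromosome starts, and pileup above background in place of fold gave a ratio of 1.04. With low-background peaks only, an alternative chosen after seeing the data, the shared share was 18.2%, the width ratio 0.894, the fold ratio 1.09, the correlation 0.75 and the summit distance 49 bp. The causes were not tested, except where given.

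No paired analysis was possible because each condition has 1 library. Differences between conditions have therefore no replicate check, peaks of 1 library are not replicates of a condition, and peaks with a pileup near the lowest called, 8 fragments, have wide counting intervals. Read totals are not part of the lists, so the relative depth assumes that MACS2 was run alike for both libraries. In repeats, reads of many genomic copies fall on few assembled ones, and how the aligner placed them was not tested.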

Other observations

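In 11 places a single untreated peak was the paired partner of 2 Alexidine peaks. They were at the start of chromosome 9 (2 places), on chromosomes 6, 11 and X and on scaffolds NT_187064.1 (4 places), NT_166467.1 and NW_023337853.1. On scaffold NT_187064.1, for example, the untreated peak at 111668 to 113827 met Alexidine peaks at 111660 to 112372 and 112847 to 113827.

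The pairs with the highest ratio of pileup above background, chosen after the values were seen, were all in chromosome interiors. On the X chromosome at 169080990 to 169081510, the pileup was 227 fragments with Alexidine (162 to 211 genome backgrounds) and 92 without (51.8 to 78.8), and the ratio was 2.999. On chromosome 19 at 40496929 to 40497242 it was 31 (17.2 to 35.8) and 13 (4.83 to 15.5), a ratio of 2.99, and on chromosome 13 at 35222356 to 35222870 it was 28 (15.2 to 33.0) and 12 (4.33 to 14.6), a ratio of 2.92. In genome backgrounds, the intervals do not overlap in these 3 pairs, which were picked as extremes among 253. The lowest ratio, 0.286, was that of the peak on scaffold NT_187064.1 at 111660 to 112372, whose untreated partner has its summit under the neighbouring Alexidine peak.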
